A study of Drosophila melanogaster with 11 samples.

Results

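The genes described here encode the proteins of the cytosolic ribosome of Drosophila melanogaster. They were chosen by symbol alone: RpL or RpS followed by a digit, plus sta and the stalk genes RpLP0, RpLP1 and RpLP2. RpL15, the paralogs RpS19b, RpS5b, RpL22-like and RpL10Aa, and genes of chromosome 4 were left out. The rule takes 86 genes of the RefSeq gene table. Of these, 35 had a probeset assigned to 1 gene and were measured, among 11982 genes in all. The remaining genes, sta among them, were not analysed here. Where a gene had several probesets, the one of highest mean log2 over all 11 arrays stood for it. The 35 members comprised 18 large-subunit genes, 14 small-subunit genes and 3 stalk genes, and 3 of them (RpL17, RpL37-1 and RpS28b) lie on the X chromosome. By their names, RpL24-like, RpL7-like and RpS28-like are relatives of ribosomal proteins, and they were kept because the rule takes them.

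Total RNA was measured in whole third-instar larvae of both sexes on Affymetrix Drosophila arrays, with 1 biotin-labelled sample per array. All larvae were y w. The act-Gal4 control (+/act-Gal4) carried a Gal4 driver, and the P control (+/P) carried a transgene labelled P. P was taken to be the HP1-21 line named in the design text, and HP1-21 to be a construct for RNA interference with HP1 under Gal4 control. The P/act-Gal4 larvae (+/P-act) carried both. Each genotype was measured on 2 male and 2 female arrays, except P/act-Gal4 females with 1. The labels give the driver's promoter only as act, do not state the cells in which it was active, and do not say how many larvae were pooled. Some strain and description labels contradict the titles, and groups follow the titles. Populations are called independent in the design text, but no label ties an array to one, so p-values measure only the spread between these arrays.

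A cytosolic ribosome has a small subunit, which holds the mRNA and reads its codons, and a large subunit, which joins the amino acids. The acidic proteins P1 and P2 sit on P0 as a flexible stalk of the large subunit, where elongation factors are recruited. In Drosophila, losing 1 copy of many of these genes gives the Minute phenotype of slow development and short, thin bristles. Growing larval tissues make large amounts of ribosomal protein mRNA, and growth signalling through TOR and Myc is known to set the rate at which ribosomes are made.

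RpL37A, a large-subunit protein whose gene served as the marker of the group, was read at a mean log2 intensity of 12.79. The probesets fell into 2 ranges: 28 members had mean log2 intensities from 11.68 to 13.01, and the other 7 had means from 3.69 to 9.85. The highest value on any array was 13.54 to 13.73, so the 28 bright probesets lay close to the top of the scale, where a compressed response was not tested. RpLP2, RpL23 and RpLP1 had the highest means, at 13.01, 12.88 and 12.83. RpS28-like, RpS28a and RpS10a had the lowest, at 3.69, 3.86 and 4.22, near the median log2 intensity of the arrays (3.76 to 3.97). No background level or detection calls were available for these dim probesets, and signals of different probesets do not rank transcripts. The median gap between replicate arrays was 0.0337 to 0.0561 (log2) over the members and 0.0925 to 0.135 over all probesets. The widest replicate gap of a member was 0.62, between the P control males for RpS28-like.

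Across the whole series, P/act-Gal4 males had less HP1 transcript, with a log2 change of −0.53 (limma, adjusted p = 0.00124), and HP1 was not lower on the P/act-Gal4 female array (−0.0017, adjusted p = 0.994). The log2 signal of the 3′ control probeset of eIF4a minus that of its 5′ one, which grows as RNA is degraded or cDNA cut short, was lowest on the P/act-Gal4 arrays. It was 3.66 and 3.72 in P/act-Gal4 males, against 4.30 and 4.34 in act-Gal4 control males and 4.96 and 4.99 in P control males. In females it was 3.47 on the P/act-Gal4 array and 3.90 to 4.28 on the 4 control arrays. This measure moved with every P/act-Gal4 comparison below, and its part in the results was not tested. The larvae were measured whole, so fewer cells of a type and less RNA per cell cannot be told apart.

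**Figure D1:**
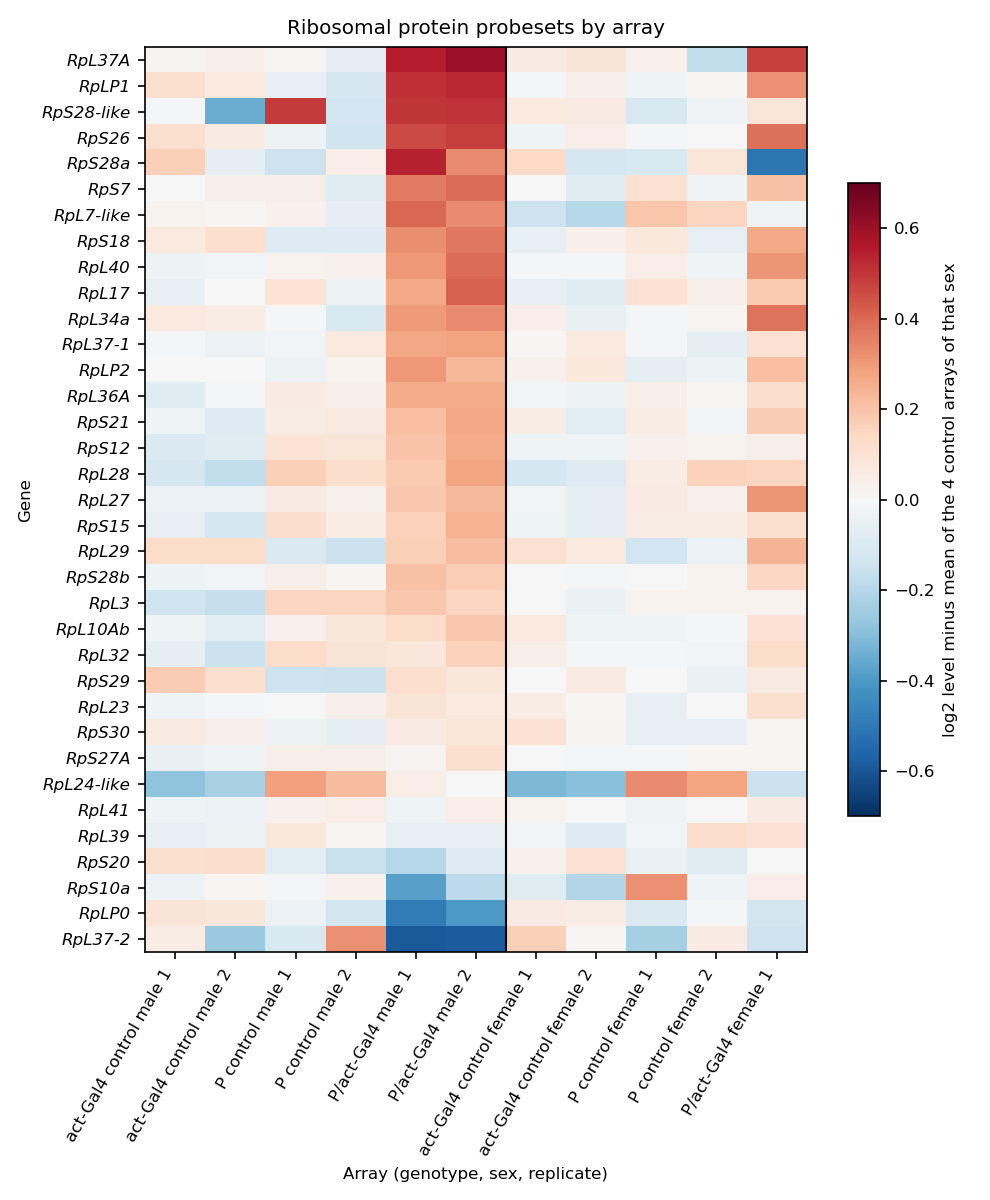
Log2 intensity of each of the 35 ribosomal protein probesets (rows) on each of the 11 arrays (columns) minus the mean of the 4 control arrays of the same sex, as a colour from blue (lower) through white to red (higher). The 2 P/act-Gal4 male columns are red for most rows and blue for RpLP0, RpL37-2 and RpS10a, and the P/act-Gal4 female column is paler, with RpS28a in blue.

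Whether ribosomal protein transcripts differed where both transgenes were present was asked first in males. Of the 35 members, 18 were higher in P/act-Gal4 males than in the mean of both controls, 2 were lower and 15 were not called. That is 51.4% of members higher, where 19.7% of all genes were called higher, and 5.71% lower, where 16.8% of all genes were called lower. The median log2 change was 0.21 over the members and −0.012 over all genes. The rises were small: the called members rose by 0.21 to 0.58 on the log2 scale. Because the members are bright, they were also set beside the 194 other genes with a mean log2 intensity of at least 10, of which 29.4% were called higher and 32.0% lower, with a median change of −0.021. Of the 28 members in that range, 14 were called higher and 1 lower. The count of 18 rested on both P/act-Gal4 male arrays: it was 6 without replicate 2, where 12% of all genes were called higher, and 9 without replicate 1, where 14.6% were. RpL37A, RpLP1, RpLP0, RpS26, RpS7 and RpL7-like were called in males whichever single array was left out. Each of the other 14 male calls was lost on leaving out at least 1 array.

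RpL37A had the largest rise of the called members in males. Its log2 intensities were 12.62 and 12.64 in act-Gal4 control males, 12.61 and 12.54 in P control males and 13.15 and 13.20 in P/act-Gal4 males. Both P/act-Gal4 arrays lay above all 4 male control arrays. The log2 change was 0.58 ± 0.082 (SE), a 1.49-fold rise (adjusted p = 0.000269, limma's moderated test with Benjamini-Hochberg adjustment, as for every adjusted p here). The rise was 0.55 against the act-Gal4 control alone and 0.60 against the P control alone, and it passed against each.

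The 3 stalk genes did not move together. RpLP1, which encodes P1, was at 12.78 and 12.74 in act-Gal4 control males, 12.61 and 12.55 in P control males, and P/act-Gal4 males had 13.18 and 13.20. It was higher in P/act-Gal4 males on both arrays without overlap, by 0.52 ± 0.073 (SE) on the log2 scale, or 1.43-fold (adjusted p = 0.000263). RpLP2, which encodes P2, stood at 12.93 on both act-Gal4 control male arrays, 12.89 and 12.95 on the P control male arrays and 13.23 and 13.16 on the P/act-Gal4 male arrays. This rise of 0.27 ± 0.074 (adjusted p = 0.0163) was 1.20-fold, again with no overlap. RpLP0, whose product P0 carries the other stalk proteins, went the opposite way. Its values were 12.25 and 12.24 in act-Gal4 control males, 12.12 and 12.03 in P control males and 11.67 and 11.76 in P/act-Gal4 males. All 4 control arrays were above both P/act-Gal4 arrays, and the log2 level fell by 0.45 ± 0.077, a 1.36-fold fall (adjusted p = 0.000959). RpLP0 also passed as lower against each control alone. Whether the change of RpLP0 differed from that of RpLP1 was not tested.

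Among the small-subunit genes, 7 of 14 rose and none fell. RpS26, whose protein lies beside the mRNA exit channel, was at 12.47 and 12.42 in act-Gal4 control males, 12.32 and 12.22 in P control males, and P/act-Gal4 males had 12.82 and 12.84. It rose by 0.47 ± 0.075 on the log2 scale (adjusted p = 0.000589) and its groups did not overlap. RpS7, at 11.90 to 12.03 on the control arrays and at 12.35 and 12.38 on the P/act-Gal4 arrays, rose by 0.38 ± 0.081 (adjusted p = 0.00398). A second, dim probeset of RpS7 (mean log2 3.94) gave −0.051 in males. With the mean of its probesets the male call of RpS7 was lost (0.16, adjusted p = 0.114). RpS18, RpS21 and RpS12 rose by 0.35, 0.24 and 0.23. RpS12 is known in Drosophila for its part in cell competition between Minute and wild-type cells. RpS15, at 0.21 (adjusted p = 0.0575), stood just outside the threshold, and RpL27, at 0.21 (adjusted p = 0.0497), just inside it.

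The dim small-subunit probesets gave wide values. RpS28a and RpS28-like share a name with RpS28b, the bright X-linked member. RpS28b was at 12.56 to 12.64 on the male control arrays and at 12.80 and 12.77 on the P/act-Gal4 male arrays, a change of 0.19 that did not pass (adjusted p = 0.0726). RpS28a was at 4.07, 3.84, 3.76 and 3.95 on the male control arrays and at 4.44 and 4.24 on the P/act-Gal4 male arrays. It rose by 0.43 ± 0.11 (adjusted p = 0.0125) from a level around the array median. RpS28-like was at 4.08, 3.74, 4.58 and 3.96 in control males and at 4.59 and 4.60 in P/act-Gal4 males, and it rose by 0.50 ± 0.15 (adjusted p = 0.0238). One P control array thus came very near the P/act-Gal4 values. RpS10a, at 4.80 to 4.86 in control males and at 4.45 and 4.65 in P/act-Gal4 males, was lower without overlap but did not pass (−0.28, adjusted p = 0.0662).

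Of the 18 large-subunit genes outside the stalk, 9 rose and 1 fell. RpL40, which is made as a fusion with ubiquitin, was at 12.03 to 12.10 on the 4 male control arrays and at 12.37 and 12.46 on the P/act-Gal4 male arrays. It rose by 0.34 ± 0.074 (adjusted p = 0.00423). RpL17, at the exit of the nascent chain, and RpL34a rose by 0.34 and 0.32, and RpL36A, RpL28 and RpL27 by 0.26, 0.23 and 0.21. RpL7-like, a relative of a yeast factor that assembles the large subunit, was at 8.10 to 8.19 in control males and at 8.56 and 8.49 in P/act-Gal4 males, a rise of 0.37 ± 0.075 (adjusted p = 0.00314). RpS27A and RpS30, the other members made as fusions with ubiquitin or a ubiquitin-like protein, had changes of 0.065 and 0.071 that did not pass. RpL32, a common reference gene in fly expression work, had a change of 0.12 (adjusted p = 0.280), with a 95% interval of −0.044 to 0.28.

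RpL37-1 and RpL37-2, which encode versions of the same large-subunit protein, were called in opposite directions in males. The X-linked RpL37-1 was at 11.84, 11.81, 11.83 and 11.92 on the male control arrays and at 12.12 and 12.13 on the P/act-Gal4 male arrays. It rose by 0.27 ± 0.074 (adjusted p = 0.0164). RpL37-2, on arm 2R, was at 6.17 and 5.86 in act-Gal4 control males, 6.01 and 6.44 in P control males and 5.54 on both P/act-Gal4 male arrays. It fell by 0.59 ± 0.13, or 1.50-fold (adjusted p = 0.00606), and every control array was above both P/act-Gal4 arrays. Its call was narrowly lost when either P/act-Gal4 male array was left out (adjusted p = 0.0522 and 0.0554).

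Counted without a model, both P/act-Gal4 male arrays lay above all 4 male control arrays for 23 members, and 23.0% of all genes did so. They lay below all 4 for 3 members (RpLP0, RpL37-2 and RpS10a), as did 22.0% of all genes, and overlapped the controls for the other 9. The P/act-Gal4 male mean was above both control means for 27 members, below both for 5 and between them for RpL24-like, RpL41 and RpS29. These positions were not counted over all genes, so the numbers cannot be read as particular to the members. Against each control group alone, the number of members called higher was 20 (act-Gal4 control), where 18.2% of all genes were called higher, and 13 (P control), where 18.3% were. Of the members, 10 were called higher against each, as were 11% of all genes. These were RpL37A, RpLP1, RpLP2, RpS26, RpS7, RpL40, RpL17, RpL34a, RpL7-like and RpS28a. RpLP0 and RpL37-2 were called lower against each, as were 8.43% of all genes.

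**Figure D2:**
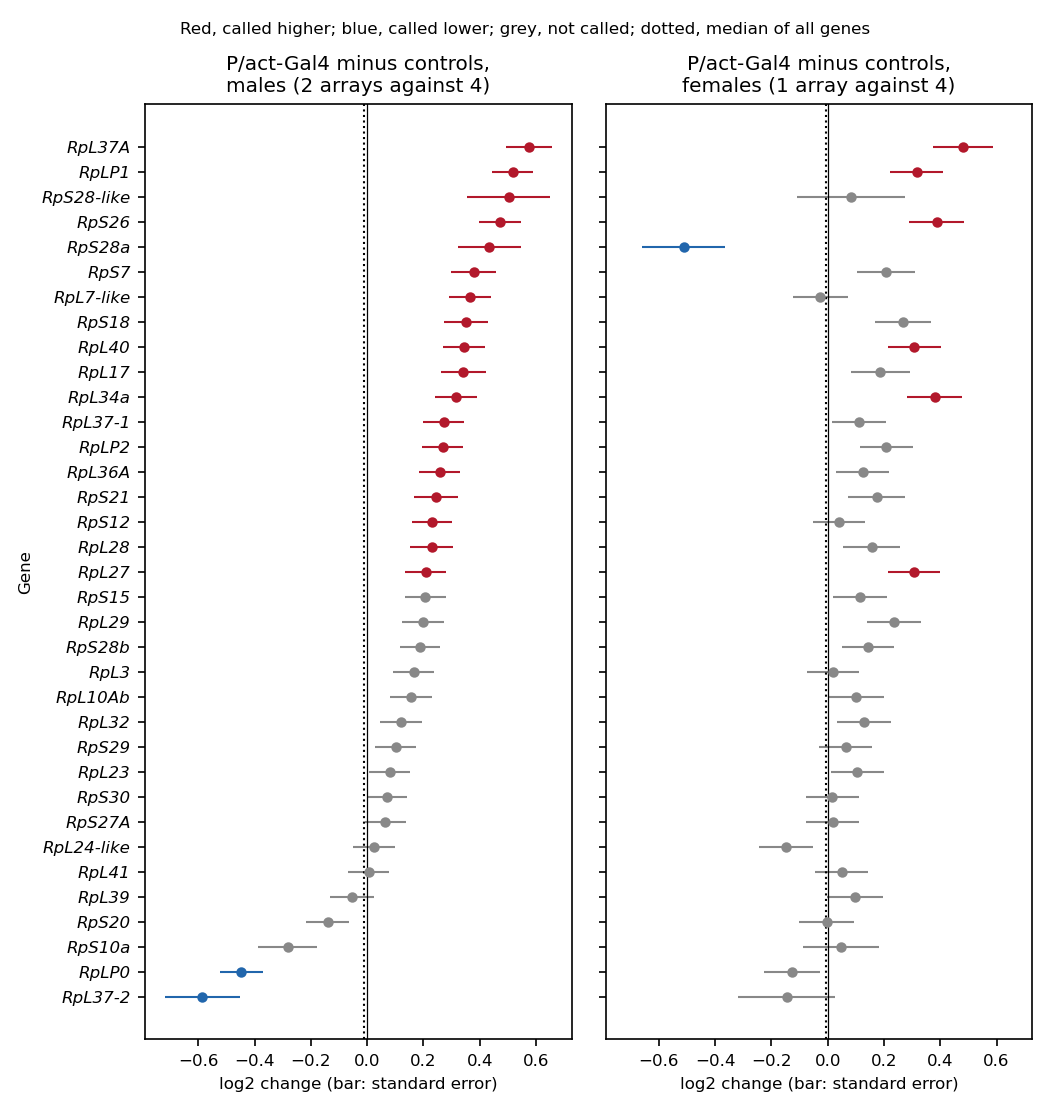
Log2 change of each ribosomal protein gene in P/act-Gal4 larvae against the mean of both controls, in males (2 arrays against 4) and females (1 array against 4), with the standard error of the fit. Red points are called higher and blue points lower: 18 and 2 in males, 6 and 1 in females. The dotted line is the median of all genes.

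In females the comparison rests on 1 P/act-Gal4 array, which was assumed to vary like the other groups. Of the 35 members, 6 were higher, 1 was lower and 28 were not called, or 17.1% higher, where 11.3% of all genes were called higher, and 2.86% lower, where 8.34% were called lower. The median log2 change was 0.11 over the members and −0.0061 over all genes. Of the 194 other genes with a mean log2 intensity of at least 10, 22.2% were called higher and 28.4% lower. Their median change was −0.016. Of the 28 members in that range, 5 were called higher, which is a smaller share, and 0 lower, with a median of 0.13. All 6 members called higher in females (RpL37A, RpS26, RpL34a, RpLP1, RpL40 and RpL27) were also called higher in males, which is 100% of the female list and 33.3% of the male list. The same overlap was not counted over all genes, so it cannot be read as particular to the members. The count of 6 fell on leaving out any single control or P/act-Gal4 male array. It is therefore not to be read as an excess over all genes. The count also depended on the test: limma's trend and robust options gave 17 members higher, where 14% of all genes were called higher. Among genes with a mean log2 of at least 6, 10 of 31 members were higher, where 30.8% of those genes were. With the arrays scaled again by quantiles, the member median in females was 0.0050 and 3 members were called higher, where 9.84% of all genes were, so the share of members was no larger than that of all genes. Under the same scaling the male median was 0.092, with 12 members called higher, where 17.1% of all genes were.

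RpL37A was at 12.74 and 12.77 in act-Gal4 control females, 12.71 and 12.51 in P control females and 13.16 on the P/act-Gal4 female array. That array was above every control, and the rise was 0.48 ± 0.11 on the log2 scale (adjusted p = 0.00892). RpS26 was at 12.38, 12.46, 12.40 and 12.41 in control females and at 12.80 in P/act-Gal4, a rise of 0.39 ± 0.097 (adjusted p = 0.0183). RpL34a was at 9.74 to 9.84 in control females and at 10.17 in P/act-Gal4, and it rose by 0.38 (adjusted p = 0.0211). These 3 genes were also called higher against each control alone, as were 5.73% of all genes. RpLP1, RpL40 and RpL27 rose by 0.32, 0.31 and 0.31, with adjusted p of 0.0420, 0.0494 and 0.0452. RpLP2 was at 12.90 to 13.04 on the control arrays and at 13.18 on the P/act-Gal4 array, which did not pass (0.21, adjusted p = 0.173). RpLP0 was at 12.16, 12.15, 12.00 and 12.09 in control females and at 11.97 in P/act-Gal4, below every control array, and did not pass either (−0.13, adjusted p = 0.448).

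RpS28a was the member called lower in females. It was at 3.87, 3.62, 3.63 and 3.82 in control females and at 3.22 on the P/act-Gal4 array, below the array median of 3.76. It fell by 0.51 ± 0.15 (adjusted p = 0.0341), while it had risen in males. Without the first act-Gal4 control female array the fall did not pass (adjusted p = 0.0618), and without the first P/act-Gal4 male array the male rise did not pass either (adjusted p = 0.156). The P/act-Gal4 female array lay above all 4 female controls for 24 members, as it did for 27.2% of all genes, and below all 4 for 2 (RpLP0 and RpS28a), as it did for 25.4% of all genes. Members above all same-sex controls in both sexes numbered 20, where 11.8% of all genes were above in both. RpLP0 was the 1 member below in both, where 8.76% of all genes were.

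The difference between the sexes was tested as such. It was called for 1 member in the direction of a larger male change, where 7.48% of all genes were called, and for 0 members in the other direction, where 7.74% of all genes were called. At an unadjusted p under 0.05, 3 members differed, and 30.2% of all genes did. With limma's trend and robust options, 7 members were called in the direction of a larger male change and 1 in the other, where 9.98% and 10% of all genes were called. The called member was RpS28a, whose change was larger in males by 0.95 ± 0.18 on the log2 scale (adjusted p = 0.00639), from dim signals and 1 female array. RpL7-like followed, at 0.39 ± 0.12 (adjusted p = 0.0625). For RpL37A the difference was 0.094, with a 95% interval of −0.20 to 0.39, for RpLP1 it was 0.20 (−0.061 to 0.46), and for RpLP0 it was −0.32 (−0.60 to −0.047, adjusted p = 0.134). The member median of this difference was 0.060. The male and female comparisons share no arrays: 30 of 35 members (85.7%) had the same sign in both, against 62.9% of all genes. Across members, which share normalization and labelling and are not independent, Pearson's r of the male and female changes was 0.473. It was 0.85 over the 28 bright members and 0.399 over all genes. No r was computed over the other bright genes, so the 0.85 cannot be read as particular to the members.

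**Figure D3:**
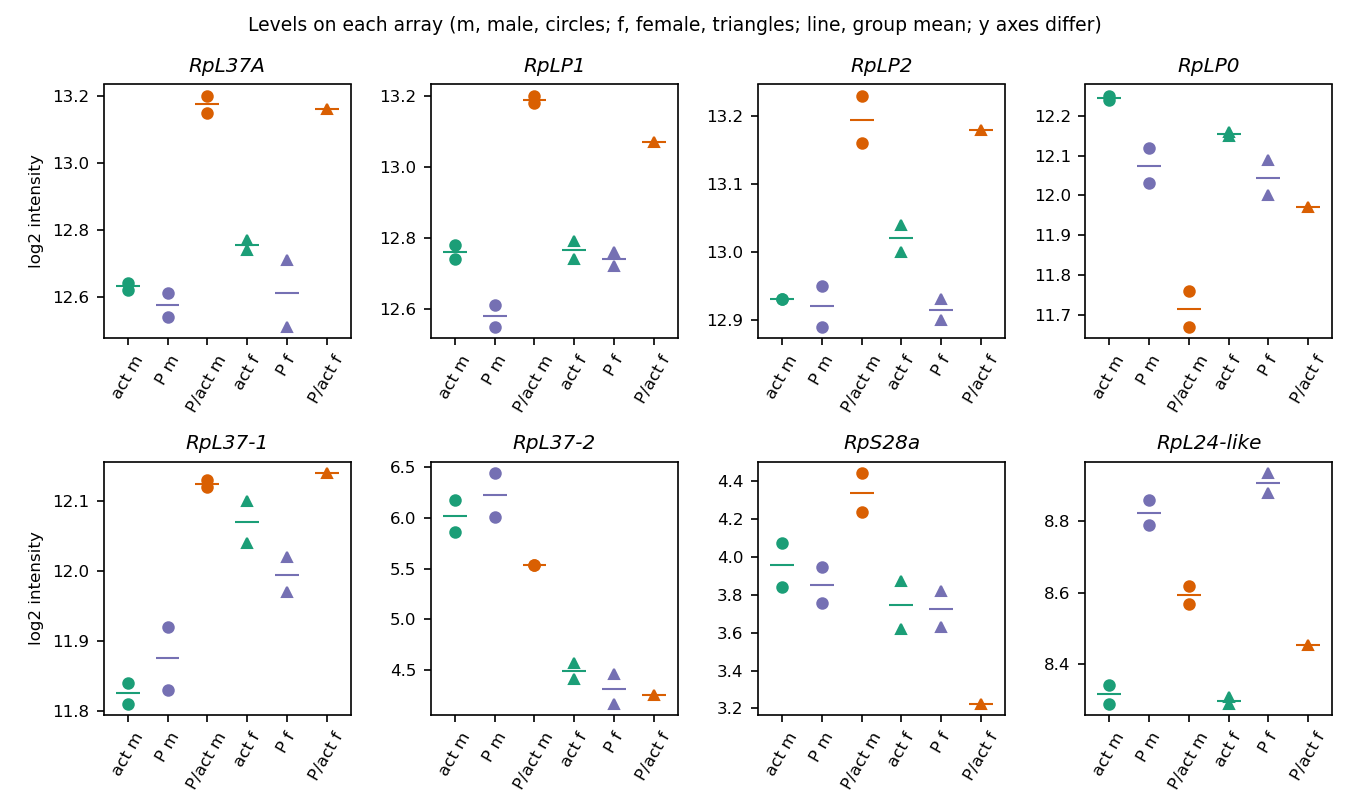
Log2 intensity of 8 ribosomal protein genes on each array, with a line at the group mean (act, act-Gal4 control; P, P control; P/act, P/act-Gal4; m, male; f, female; the y axes differ and do not start at 0). RpL37A, RpLP1 and RpLP2 are highest in P/act-Gal4 of both sexes, RpLP0 is lowest in P/act-Gal4 males, RpL37-2 is higher in males than in females, RpS28a parts by sex in P/act-Gal4, and RpL24-like parts by control.

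Sex was compared in the controls, over 4 male and 4 female arrays. Of the members, 3 were higher in males, where 22.4% of all genes were called higher, 2 were lower in males, where 40.9% of all genes were called lower, and 30 were not called. The 28 bright members differed by −0.18 to 0.060 on the log2 scale. The 3 members higher in males were dim ones. RpL37-2 was at 5.86 to 6.44 on the male control arrays and at 4.17 to 4.56 on the female control arrays, a difference of 1.72 ± 0.11, or 3.30-fold (adjusted p = 8.17e-08). RpS10a was at 4.80 to 4.86 in males and at 3.39 to 3.91 in females, 1.24 ± 0.086 higher in males (adjusted p = 1.78e-07). RpS28-like was at 3.74 to 4.58 in males and at 2.89 to 3.07 in females, 1.09 ± 0.12 higher in males (adjusted p = 1.38e-05). None of the 3 had overlapping sexes, and the female values of RpS10a and RpS28-like were near or below the array median, so that a fold there may be too small. RpL37-1 was higher in females by 0.18 on the log2 scale (female minus male; −0.18 ± 0.061 as male minus female, adjusted p = 0.0218). RpL7-like had a male minus female difference of −0.18 (adjusted p = 0.0272), but its act-Gal4 controls alone showed 0.014. Both of these calls were lost when some single arrays were left out.

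The median of all genes in the sex comparison was −0.14, and that of the members −0.023. Setting every array to a common median moved these to −0.29 and −0.18, and 25 members were then called lower in males, where 63.4% of all genes were. Under that scaling the member median stayed above that of all genes, while RpS28b and RpS27A, at 0.014 and 0.011 before, turned to −0.14 each and passed as lower in males (adjusted p = 0.0486 and 0.0451). Sex differences of the bright members, including those of the X-linked RpL17 (−0.082) and RpS28b (0.014), are to be read against the median of all genes under the same scaling.

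The 4 paralogs that the rule leaves out were all higher in control males, by 2.13 to 3.10 on the log2 scale. RpL10Aa, a paralog of RpL10Ab, was at 6.30 to 6.42 in control males and at 3.11 to 3.40 in control females. RpL10Ab itself, whose protein forms a movable stalk of the large subunit, was at 12.41 to 12.56 in the controls of both sexes. In P/act-Gal4 males 3 of the 4 paralogs fell, among them RpS19b by 0.99 ± 0.19 (adjusted p = 0.00236) and RpS5b by 0.82 ± 0.094 (adjusted p = 6.78e-05). RpS5b was at 6.97 to 7.17 in control males and at 6.22 and 6.27 in P/act-Gal4 males. The members that were higher in control males moved in both directions there, with RpL37-2 called lower and RpS28-like called higher. Of 24 measured genes of a testis list, 23 were higher in control males and none lower, where 22.4% and 40.9% of all genes were. The median difference of the list was 4.74. In P/act-Gal4 males 3 (12.5%) of these 24 rose and 9 (37.5%) fell, where 19.7% and 16.8% of all genes did. The mean log2 level of the list was 7.14 and 7.24 in P/act-Gal4 males, 7.17 and 7.18 in act-Gal4 control males and 7.52 and 7.50 in P control males. Between the male controls, 10 (41.7%) of the 24 were called lower in act-Gal4 and 0 higher, where 9.85% and 13.3% of all genes were. On the P/act-Gal4 female array 11 (45.8%) of the 24 were higher, at a mean log2 level of 3.79 against 3.37 to 3.49 on the female control arrays. Of all genes, 11.3% were called higher in P/act-Gal4 females. The part of testis tissue in the member results was not tested.

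**Figure D4:**
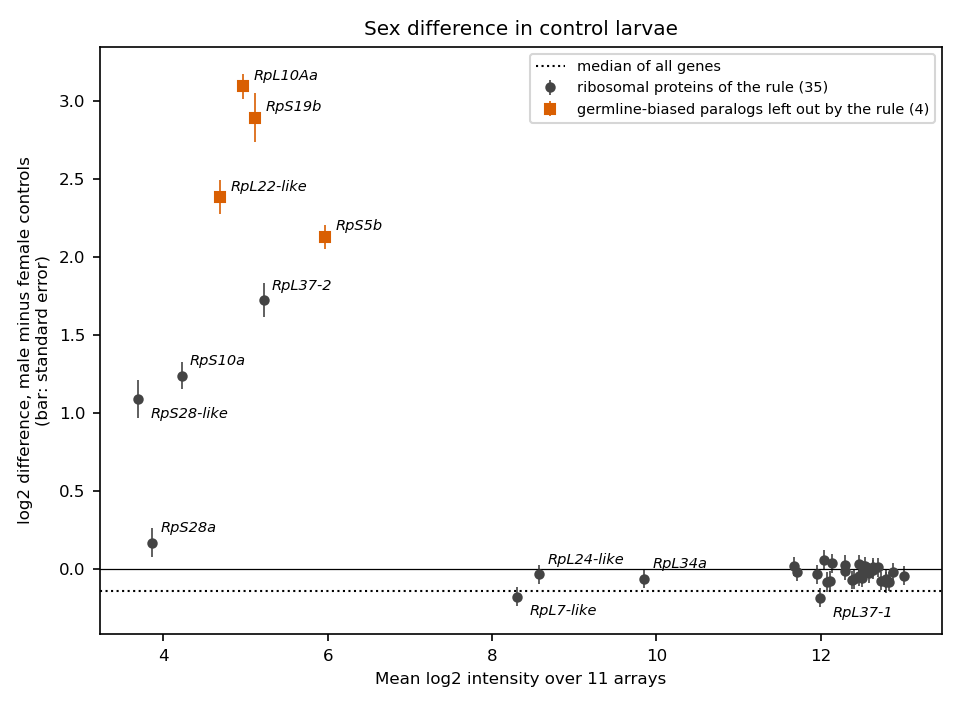
Male minus female log2 difference in the controls (bar, standard error) against mean log2 intensity over the 11 arrays, for the 35 ribosomal protein genes (circles) and the 4 paralogs that the rule leaves out (squares). The bright members lie between −0.18 and 0.060, RpL37-2, RpS10a and RpS28-like lie above 1, and the paralogs lie from 2.13 to 3.10. The dotted line is the median of all genes.

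The controls themselves were compared, since every P/act-Gal4 change above uses both. In males, act-Gal4 minus P control was called higher for 1 member, where 13.3% of all genes were called, and lower for 3, where 9.85% were called. In females 0 members were called higher, where 9.95% of all genes were called, and 2 were called lower, where 10% were called. Over both directions, 4 members passed an unadjusted p under 0.05 in females, as did 33% of all genes. RpL24-like, a relative of a yeast factor of large-subunit assembly, was lower in the act-Gal4 control in both sexes. It was at 8.29 and 8.34 in act-Gal4 control males and at 8.86 and 8.79 in P control males, a difference of −0.51 ± 0.085 (adjusted p = 0.00162). In females it was at 8.29 and 8.31 against 8.93 and 8.88, a difference of −0.61 ± 0.085 (adjusted p = 0.000440). Its P/act-Gal4 values, 8.62, 8.57 and 8.45, lay between those of the controls in each sex. RpL7-like was lower in act-Gal4 control females, by 0.34 (adjusted p = 0.0185, and 0.0524 to 0.0980 without either act-Gal4 array or the first P array). In males RpL3, which lines the peptidyl transferase centre, and RpL28 differed by −0.29 each (adjusted p = 0.0293 and 0.0415), and RpS29 by 0.30 (adjusted p = 0.0303). A second bright probeset of RpS29 gave 0.16 there and did not pass (adjusted p = 0.230). Leaving out any 1 of the 4 male control arrays ended the calls of RpL3, RpL28 and RpS29. With arrays set to a common median of bright genes other than members, chosen after the data were seen, the member median of this male comparison moved from −0.056 to −0.20, and 6 members were then called lower, where 21.4% of all genes were, against 9.85% before.

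Other genes of protein synthesis were read from lists of symbols, whose counts are to be read against the shares of all genes called higher and lower: 19.7% and 16.8% in P/act-Gal4 males, 11.3% and 8.34% in P/act-Gal4 females, and 22.4% and 40.9% in control males against females. Translation factors, the proteins that start, extend and end chains on the ribosome, were measured for 46 of 46 genes, of which 17 (37%) rose and 7 (15.2%) fell in P/act-Gal4 males, with a median change of 0.18. eIF2Bepsilon and eIF5, which act on the factor that carries initiator tRNA, rose by 0.76 and 0.70 (adjusted p = 0.000193 and 6.50e-05), and eIF3f2 and eIF4H2 fell by 0.69 and 0.52. In females 7 (15.2%) rose and 1 (2.17%) fell, with a median of 0.15, and eIF4E3 and eEF5 rose by 0.49 and 0.39. In control males 14 (30.4%) were higher and 16 (34.8%) lower than in females, with eIF4E5 and eIF4H2 higher by 4.21 and 3.86.

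Genes of ribosome biogenesis act in the nucleolus in rRNA synthesis and subunit assembly. Of 53 listed, 40 were measured, and 6 (15%) rose and 7 (17.5%) fell in P/act-Gal4 males, with a median of −0.053, which is near the shares of all genes. Nopp140, which is nucleolar, and pes rose by 0.66 and 0.59, while peng and Non2 fell by 0.69 and 0.72. The list was matched by symbol, and pes is the fly symbol of peste, a scavenger receptor and not a nucleolar protein. The 6 rises in males include it. In females 2 (5%) rose and 7 (17.5%) fell, with a median of −0.16, and Fib, the rRNA methyltransferase fibrillarin, fell by 0.70 (adjusted p = 0.000599). Fib was at 7.45 to 7.77 on the female control arrays and at 6.91 on the P/act-Gal4 array. Tif-IA, an initiation factor of RNA polymerase I, rose by 0.60 in females (adjusted p = 0.00945). Neither change was confined to females: in P/act-Gal4 males Tif-IA changed by 0.57 (adjusted p = 0.00138) and Fib by −0.68 (adjusted p = 6.6e-05).

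Of 21 genes of growth signalling, 14 were measured, of which 6 (42.9%) rose and 1 (7.14%) fell in P/act-Gal4 males, with a median of 0.33. S6k, the kinase that phosphorylates ribosomal protein S6, rose by 0.78 ± 0.092 (adjusted p = 8.05e-05), InR, the insulin receptor, rose by 0.72, and raptor, a subunit of TOR complex 1, fell by 0.37. In females 2 (14.3%) rose and none fell: slif, an amino acid transporter, by 0.88, and InR by 0.62. In each sex, act-Gal4 minus P control was called higher for 1 (7.14%) and lower for 5 (35.7%) of the 14. The shares of all genes were 13.3% and 9.85% in males and 9.95% and 10% in females. Akt and Pdk1 rose by 0.72 and 0.54 in P/act-Gal4 males, and their male control differences were −0.70 and −0.68. For slif the female controls differed by 0.55. The male controls of S6k and InR differed by more than the male changes of these 2 genes. S6k was at 7.93 and 8.0 in act-Gal4 control males, 8.77 and 8.95 in P control males and 9.16 and 9.22 in P/act-Gal4 males. Its act-Gal4 minus P control difference was −0.90 (adjusted p = 0.000145), and its rise was 1.23 against the act-Gal4 control alone and 0.33 against the P control alone (adjusted p = 0.0409). InR was at 4.89 and 5.11 in act-Gal4 control males, 5.99 and 5.89 in P control males and 6.11 and 6.28 in P/act-Gal4 males. Its act-Gal4 minus P control difference was −0.94 (adjusted p = 0.000138), and against the P control alone its change of 0.25 did not pass (adjusted p = 0.124). In females the change of InR was 0.92 against the act-Gal4 control alone and 0.33 against the P control alone.

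Mitochondrial ribosomal proteins are encoded in the nucleus for the separate ribosome of the mitochondrion. Of 69 measured, 2 (2.9%) rose and 29 (42%) fell in P/act-Gal4 males, with a median of −0.24, and the others were not called. In females 0 rose and 8 (11.6%) fell, with a median of −0.19. The largest falls in males were those of mRpL36 (0.66) and mRpL12 (0.61), where mRpS22 and mRpL44 rose by 0.35 and 0.34, and in females those of mRpL2 (0.69) and mRpL9 (0.55). In males the act-Gal4 control was called higher than the P control for 14 (20.3%) of these genes and lower for 1 (1.45%), with a median of 0.19. Of all genes, 13.3% were called higher and 9.85% lower there.

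Markers of other tissues and of stage differed between genotypes as well, and also between the controls. Of 21 measured genes of late larvae and salivary glue, 4 (19%) rose and 10 (47.6%) fell in P/act-Gal4 males (median −0.21), and 11 (52.4%) rose and 4 (19%) fell in females (median 0.40). Of 3 measured fat body genes, 0 were called in males, and in females Fbp1 and Fbp2 were higher than the mean of both controls, by 0.86 and 0.46. The female controls themselves differed by more, with act-Gal4 minus P control differences of 1.46 for Fbp1 and 0.91 for Fbp2. Against the act-Gal4 control alone the female changes were 0.13 and 0.0079 and did not pass (adjusted p = 0.485 and 0.973). Among the 21 late larval and glue genes, act-Gal4 minus P control was called higher for 9 (42.9%) and lower for 3 (14.3%) in females. In males it was called higher for 7 (33.3%) and lower for 3 (14.3%). The shares of all genes were 9.95% and 10% in females and 13.3% and 9.85% in males. In females ng1, ng2 and ng3 changed by −0.803, −1.07 and −0.811, with control differences of −1.802, −2.043 and −1.83. Sgs1 changed by −0.738 there, with a control difference of 0.499. These 4 genes were all the falls called in females. Of the 11 rises there, the largest were those of Eig71Ea (2.84, control difference 0.764) and Eig71Ed (1.97, control difference 0.111). In males ImpE2 had the largest change of the list (−3.76), and the largest rise was that of Eig71Ed (1.85). The part of these tissue and stage markers in the changes of the ribosomal protein genes was not tested.

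**Figure D5:**
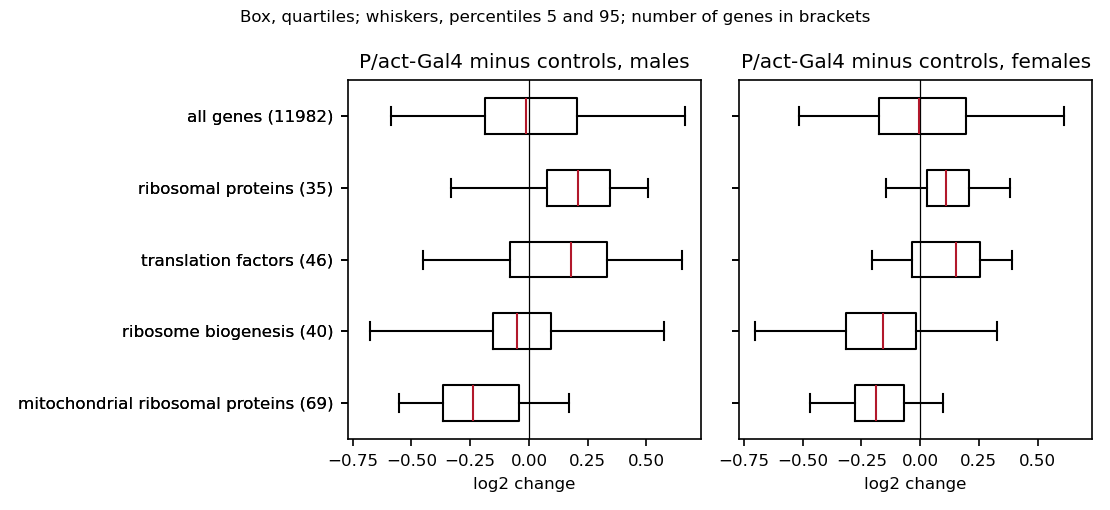
Log2 change in P/act-Gal4 larvae against both controls in males and females for all genes, the 35 ribosomal protein genes and 3 lists (box, quartiles with the median in red; whiskers, percentiles 5 and 95). The medians of ribosomal proteins (0.21 and 0.11) and translation factors (0.18 and 0.15) lie above 0, and those of mitochondrial ribosomal proteins (−0.24 and −0.19) lie below 0.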

How the data were processed

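The deposited values are intensities, 1 per probeset and array, that the authors normalized with RMA, per the submitters' processing notes; their linear scale was checked, and whether 1 RMA run took in all arrays is not given in the sources used here. Of 18952 probesets, 183 controls were left out and 18769 tested; 13647 are assigned to 1 gene and 402 to several by the platform table, and 13544 of the former matched the RefSeq gene table (Release 6 plus ISO1 MT), which gave the chromosome arms. Probesets shared with another gene (RpL28, RpLP0 and RpL7-like have 1 each) were not used. Log2 was taken with no pseudocount and no filter. Means of the 6 groups were fitted in R 4.3.3 by lmFit and eBayes of limma 3.58.1, with 11 arrays, 5 residual and 6.29 prior degrees of freedom. P-values were adjusted by Benjamini-Hochberg over all tested probesets, and an adjusted p under 0.05 made a call. Errors are standard errors of the fit and intervals cover 95%. The number of arrays limits the precision. Controls were weighted equally. The procedure was tested on simulated data.

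Members and lists were chosen with earlier results of these data known. The genes named are, per comparison, the 5 largest called rises and falls, RpL37A, the 3 highest and lowest by level, pairs and -like genes, the stalk genes, and up to 2 called rises and falls per list; others were named after their values were seen. Alternatives were quantile normalization, a common median, limma's trend and robust options, the mean of a gene's probesets, a filter at a mean log2 of 6, an adjusted p under 0.01, members without paralog-like names, each control alone, and leaving out each array. Promoter sequences, roX1 and roX2 were not analysed here. Figures were drawn with matplotlib 3.10.9.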

Additional observations from a re-analysis of the deposited data

Results flagged for a closer look

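By a test of the difference itself, the P/act-Gal4 change differed between the sexes in 1 member. It also differed in 3 of the 4 paralogs that the rule leaves out. Of all genes, 7.48% were called for a larger male change and 7.74% in the other direction. The 1 member is 2.86% of the members, which is below the share of all genes. For RpS28a the male minus female difference of the log2 change was 0.95 (adjusted p = 0.00639), between a rise in males and a fall on the P/act-Gal4 female array. For RpL22-like it was −0.78 (adjusted p = 0.0408), for RpS5b −1.05 (adjusted p = 0.00120) and for RpS19b −1.11 (adjusted p = 0.0434), with falls in males and no call in females. Each of these rests on 1 P/act-Gal4 female array.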

How the results depend on the processing

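The 39 member results called were repeated 752 times in all under the alternatives: 592 repeats kept the call, 159 lost it, 1 turned direction, and 12 results kept their call throughout. The cause of each shift was not tested, unless the alternative itself uses fewer arrays or genes. P/act-Gal4 changes are meant below unless sex in the controls (male minus female) or act-Gal4 minus P control is named. A percentage in brackets is the share of all genes tested that was called in that direction under the same setting. Shares are not listed below for leaving out 1 array. Quantile normalization gave a male member median of 0.0917 and a female one of 0.00498 with 3 higher (9.84%). It gave 1 lower (42%) for sex, and 0 higher (11.9%) with a median of −0.105 for act-Gal4 minus P control males. A common median of all probesets gave 0 lower (7.41%) in females and a median sex difference of the change of 0.0238. For sex it gave 25 lower (63.4%) with a median of −0.177, with RpS28b (−0.1395) and RpS27A (−0.1425) turned. Limma's trend and robust options gave 17 higher (14%) in females, 7 higher (9.98%) and 1 lower (10%) for the difference between sexes, and 9 lower (42.6%) for sex. They gave 8 higher (15.6%) and 8 lower (11.9%) in male and 5 higher (12%) and 4 lower (12.1%) in female act-Gal4 minus P control. The mean of all probesets gave 2 higher (8.28%) for the difference between sexes and 4 lower (42.3%) for sex. Probesets of a mean log2 of at least 6, 31 members, gave 10 higher (30.8%) and 0 lower (21.8%) in females, 1 lower (21.8%) for the difference between sexes and 0 higher (20.9%) for sex. They gave 7 higher (35.8%) and 6 lower (23.8%) in male and 1 higher (26.9%) in female act-Gal4 minus P control. An adjusted p under 0.01 left 9 higher (13.9%) in males, 1 higher (6.29%) and 0 lower (4.83%) in females and 0 lower (28.9%) for sex. It left 0 higher (8.03%) and 1 lower (5.05%) in male and 1 lower (5.79%) in female act-Gal4 minus P control. The 27 members without paralog-like names gave 0 lower (8.34%) in females and 0 for the difference between sexes (7.48% higher and 7.74% lower). They gave 1 higher (22.4%) and 1 lower (40.9%) for sex, and 0 lower (10%) in female act-Gal4 minus P control. Against the act-Gal4 control alone, medians were 0.263 in males, 0.151 in females and 0.104 for their difference. There were 0 lower (6.11%) in females and 1 lower (25.8%) for sex, and RpL7-like turned to 0.0139 for sex. Against the P control alone, the male median was 0.165, with 2 lower (10.3%) in females, 2 higher (8.88%) for the difference between sexes and 1 lower (30.6%) for sex. A common median of bright genes other than members, chosen after the data were seen, gave 0 lower (6.7%) in females with a median of 0.176. Medians were 0.0166 for the difference between sexes and 0.0641 for sex, with 0 lower (27%) for sex. It gave 0 higher (7.95%), 6 lower (21.4%) and a median of −0.204 in male act-Gal4 minus P control, and a median of 0.0518 in the female one. Leaving out 1 array gave 6 to 18 higher and 1 to 3 lower in males, 3 to 4 higher and 0 to 1 lower in females, 0 to 2 lower for sex, 0 to 1 higher, 1 to 3 lower and medians of −0.0557 to −0.0211 in male and 1 to 3 lower in female act-Gal4 minus P control. Without an array of a pair, the lone array is assumed to vary like the others. No paired analysis was possible because the labels number the arrays without pairing them across groups. Dim members near the array median have bounds that were not estimated.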
